A study of Mus musculus with 9 samples.

Results

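The genes described here encode the rod phototransduction cascade and the rod outer segment, and were followed in the retina of Balb/c mice, an albino strain, after light damage with or without A74. A fixed list of 39 gene symbols was matched to the names in the deposited count table, and all 39 were found among its 55414 genes. All 39 passed the filter on low counts, which kept 17272 genes. The 3 groups were light damage with A74, light damage, and control, with 3 libraries each. All groups shared the strain and the tissue, and the labels give no genotype other than library names, no age, and neither the dose, route and vehicle of A74 nor the length of the light exposure. The title names P2RX7, a purinergic receptor channel opened by ATP, as what was inhibited, and A74 is not explained in the labels. They also do not say whether a library is 1 animal or a pool. The p-values thus weigh group differences against the spread between these libraries, which may in part be technical.

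Rods turn light into a fall in cyclic GMP. The excited visual pigment activates the G protein transducin, which releases the phosphodiesterase PDE6 from its inhibitory subunit, cyclic GMP is broken down, and cation channels of the outer segment close. Arrestin, a receptor kinase and a GTPase-accelerating complex end the response, guanylate cyclases and their calcium-sensing activators restore cyclic GMP, and reductases and a retinoid transporter clear the bleached chromophore. These proteins sit in a stack of membrane discs that the rod renews throughout life, and the transcription factors CRX, NRL and NR2E3 drive most of their genes. Intense light damages rods, and albino rodents are especially sensitive to it. In RNA from whole retina, fewer rods and less RNA per rod cannot be told apart.

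Promoters of 6 genes are shown: Gucy2f, which had the largest light change, Cngb1 and Rdh8, which were called for light and for A74, and Aipl1, Gngt1 and Sag, which had the smallest light changes. Windows from 250 bases before to 50 bases after the transcription start were taken from RefSeq on mouse build GRCm38.p6, whereas the counts were made on GRCm39, and 30 of the 39 genes had at least 1 window. Capitals mark TAATCC, the core bound by CRX-type homeodomain proteins, and TGCTGA, a half-site of the element bound by NRL, on either strand (GGATTA and TCAGCA on the printed strand), and no match of one overlapped a match of the other.
The Gucy2f promoter lies at chrX:142196887-142197186 (minus strand), that of Cngb1 at chr8:95306536-95306835 (minus strand), that of Rdh8 at chr9:20818244-20818543 (plus strand), that of Aipl1 at chr11:72037460-72037759 (minus strand), that of Gngt1 at chr6:3993758-3994057 (plus strand) and that of Sag at chr1:87803430-87803729 (plus strand).
Gucy2f: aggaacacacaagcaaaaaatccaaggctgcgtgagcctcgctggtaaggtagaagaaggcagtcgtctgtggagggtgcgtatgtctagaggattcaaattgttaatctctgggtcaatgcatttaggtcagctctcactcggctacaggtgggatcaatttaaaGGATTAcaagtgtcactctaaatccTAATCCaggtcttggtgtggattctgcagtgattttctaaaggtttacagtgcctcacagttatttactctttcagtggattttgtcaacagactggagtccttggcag
Cngb1: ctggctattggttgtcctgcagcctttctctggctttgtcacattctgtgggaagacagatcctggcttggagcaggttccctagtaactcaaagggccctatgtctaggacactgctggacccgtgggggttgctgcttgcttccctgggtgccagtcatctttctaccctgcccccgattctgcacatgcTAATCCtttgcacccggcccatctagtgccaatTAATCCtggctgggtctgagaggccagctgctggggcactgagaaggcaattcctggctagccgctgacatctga
Rdh8: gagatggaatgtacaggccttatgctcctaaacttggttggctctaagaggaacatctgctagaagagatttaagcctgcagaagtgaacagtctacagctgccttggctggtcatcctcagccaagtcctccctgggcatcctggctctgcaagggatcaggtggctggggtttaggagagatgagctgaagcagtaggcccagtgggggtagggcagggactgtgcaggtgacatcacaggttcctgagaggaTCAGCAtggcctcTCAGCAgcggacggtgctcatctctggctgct
Aipl1: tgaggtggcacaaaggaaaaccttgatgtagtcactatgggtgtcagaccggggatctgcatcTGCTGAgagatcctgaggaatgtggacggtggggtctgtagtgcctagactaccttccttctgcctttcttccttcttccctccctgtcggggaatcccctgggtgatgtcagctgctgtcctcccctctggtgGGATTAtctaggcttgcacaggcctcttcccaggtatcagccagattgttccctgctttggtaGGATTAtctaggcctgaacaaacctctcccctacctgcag
Gngt1: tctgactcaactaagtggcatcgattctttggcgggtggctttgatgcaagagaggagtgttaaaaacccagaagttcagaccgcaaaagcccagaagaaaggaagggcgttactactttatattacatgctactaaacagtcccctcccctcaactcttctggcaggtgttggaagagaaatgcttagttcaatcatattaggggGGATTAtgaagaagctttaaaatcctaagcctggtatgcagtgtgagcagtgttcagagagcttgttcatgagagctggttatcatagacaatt
Sag: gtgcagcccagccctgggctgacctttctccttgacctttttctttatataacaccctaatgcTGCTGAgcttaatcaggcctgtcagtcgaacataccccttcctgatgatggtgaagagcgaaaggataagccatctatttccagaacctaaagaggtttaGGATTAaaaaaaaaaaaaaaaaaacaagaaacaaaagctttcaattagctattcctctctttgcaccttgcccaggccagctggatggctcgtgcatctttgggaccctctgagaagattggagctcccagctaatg

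The CRX-type core was found in 12 of 36 windows (33.3%), against 7.06% of the 32851 windows in the RefSeq table. It was in 37.5% of the windows of the other rod and outer segment genes described below and in 22.2% of those of cone genes. The NRL-type half-site was found in 9 of 36 windows (25%), against 19.5% of all windows. Gucy2f, which had the largest fall with light, carried the core at 84 and 59 bases before the start, and Cngb1 carried it at 58 and 25 bases before. Sag, Gngt1 and Aipl1 carried it as well, Sag at 87, Gngt1 at 44 and Aipl1 at 53 bases before the start. Rdh8, with the smallest adjusted p for light, had no core in this window and 2 half-sites after the start. The 12 members with a core had a median light change of -0.40 on the log2 scale, and the 18 with windows but no core had -0.56, with no test made. A match describes letters in a window and not a bound site.

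Libraries held 14787972 to 18740434 counts. The members together took 6.37%, 6.27% and 6.31% of the counts in the 3 A74 libraries, 4.27%, 5.07% and 5.75% in the light damage libraries, and 6.71%, 6.66% and 6.33% in the control libraries. Every light damage library was thus below every library of the other groups, and replicate 1 had the smallest share. Libraries of a group also differed in other RNA. Genes of anterior eye tissue summed to 138 CPM (counts scaled to a common library size, by TMM) in A74 replicate 1, to 238 and 183 CPM in light damage replicates 1 and 2 and to 202 and 275 CPM in control replicates 1 and 2, against 12.5 to 15.9 CPM in the other 4 libraries. Y-linked transcripts were counted 4249 to 5832 times in replicates 1 and 2 of light damage and control, and not at all in the other 5 libraries. Light damage replicate 3 therefore differed from replicates 1 and 2 in Y-linked and anterior RNA as well as in rod transcripts. No A74 library held Y-linked counts. Xist, which silences an X chromosome in female cells, had 17227 to 18172 counts in the A74 libraries and 22253 in control replicate 3, against 1 to 7 in the other 5 libraries. Light damage replicate 3, with 1 Xist count and no Y-linked count, thus matched neither kind of library, and Y-linked transcripts as a term cannot be read as sex.

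**Figure D1:**
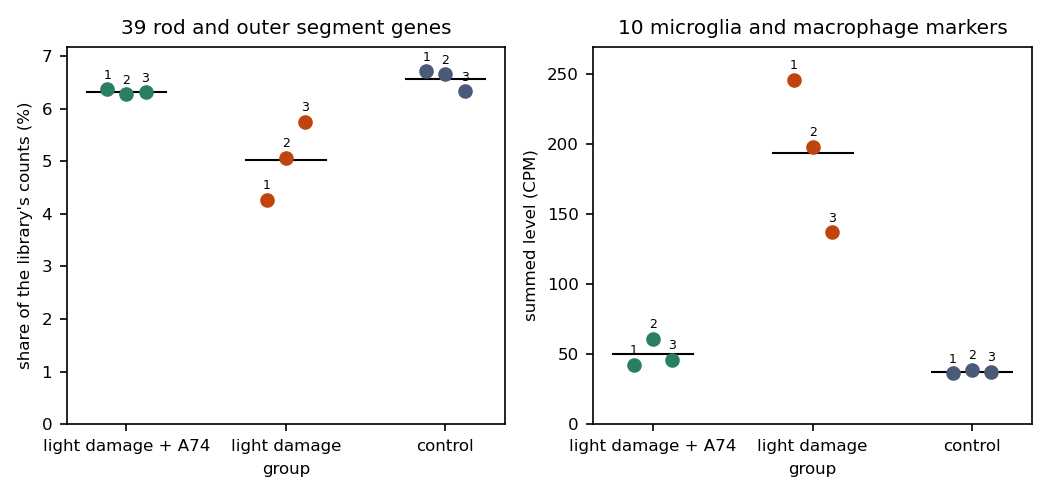
Left, the share of each library's counts in percent that fell on the 39 rod and outer segment genes, and right, the summed CPM of 10 microglia and macrophage markers, by group, with replicate numbers and the group mean as a line. The light damage libraries sat between 4.27% and 5.75% on the left, below all others, and between 137 and 246 CPM on the right, above all others.

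Light damage was first set against control. Of the 39 genes 29 fell and none rose, while 12.8% of all genes tested fell and 13% rose in the same test (edgeR's quasi-likelihood test, Benjamini-Hochberg adjusted p under 0.05). The median log2 fold change of the members was -0.53, against 0.01 over all genes tested, and the estimates ran from -0.99 for Gucy2f to 0.11 for Sag. In 34 members every light damage library was below every control library, which was the case for 20% of all genes tested, and in no member was every one above (20.6% of all genes tested). Leaving out light damage replicate 3 gave 35 members lower, and leaving out light damage replicate 2 or control replicate 1 gave 25 each. In these fits 30.8%, 16% and 17% of all genes were called in either direction, in place of 25.8%. With counts scaled by library totals alone, the median of all genes moved to 0.10, 73.8% of all calls were higher in place of 50.5%, and 28 members were lower and none higher.

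A74 with light damage was then set against light damage. Here 28 of the 39 genes were called higher and none lower, against 9.07% of all genes tested higher and 9.19% lower. The median log2 fold change was 0.40, against 0.00 over all genes tested, with estimates from 0.01 for Sag, which turned to -0.05 with library totals alone, to 0.66 for Abca4. In 32 members every A74 library was above every light damage library, as in 17.5% of all genes tested. This count of calls depended on single libraries, more than the median change did. It was 18 without light damage replicate 1, 13 without light damage replicate 2, 13 without A74 replicate 1, 13 without A74 replicate 2, 12 without A74 replicate 3 and 34 without light damage replicate 3. In the same order, the share of all genes called in either direction was 9.78%, 9.84%, 15.2%, 10.3%, 10% and 25.4%. In the main fit that share was 18.3%. The members' median log2 fold change was 0.28 without light damage replicate 1, 0.39 without light damage replicate 2, 0.37, 0.43 and 0.43 without A74 replicates 1, 2 and 3, and 0.53 without light damage replicate 3. With Y-linked transcripts as a term in the fit the count of members was 3, namely Rp1l1, Rdh8 and Nr2e3, with a median of 0.32. Of all genes 4.31% were then called in either direction. A74 and the absence of Y-linked transcripts lie largely along the same line, since 2 of 3 light damage libraries and no A74 library held such transcripts. Under library totals alone 30.6% of all calls were higher in place of 49.7%, and 25 members were higher. The calls of Pde6g, Guca1a, Rp1 and Mef2c were lost there, and Gucy2f was gained. In a fit of these 2 groups alone, without the control libraries, 20 members were higher and 14.8% of all genes were called in either direction. That fit lost 8 of the 28 calls (Gnb1, Pde6a, Pde6g, Cnga1, Rgs9bp, Rp1, Mef2c and Reep6). Of the 28 calls, 9 were kept in every fit that left out 1 library (Gnat1, Cngb1, Gucy2e, Rp1l1, Abca4, Rdh8, Nrl, Nr2e3 and Tulp1). Every other A74 call given below was lost in at least 1 of these fits. For light 24 of the 29 calls were kept in all, and those of Pde6g, Grk1, Gnb5, Guca1b and Rdh12 were not.

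A74 with light damage was last set against control. None of the 39 genes was called in edgeR, where 0.892% of all genes tested were, 3 had an unadjusted p under 0.05 (Pdc, Rp1 and Nr2e3), and DESeq2 called 1 (Rp1). The median log2 fold change was -0.12, with 30 estimates below 0 and 9 above. In 12 members every A74 library was below every control library, against 11% of all genes tested, and in 2 every one was above, against 11.8%. For 29 members the whole 95% interval of the log2 fold change lay between -0.5 and 0.5. For the other 10 a difference of that size from control was not resolved with 3 libraries a group. The comparisons share libraries, so their values below stand side by side and are not independent of each other.

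**Figure D2:**
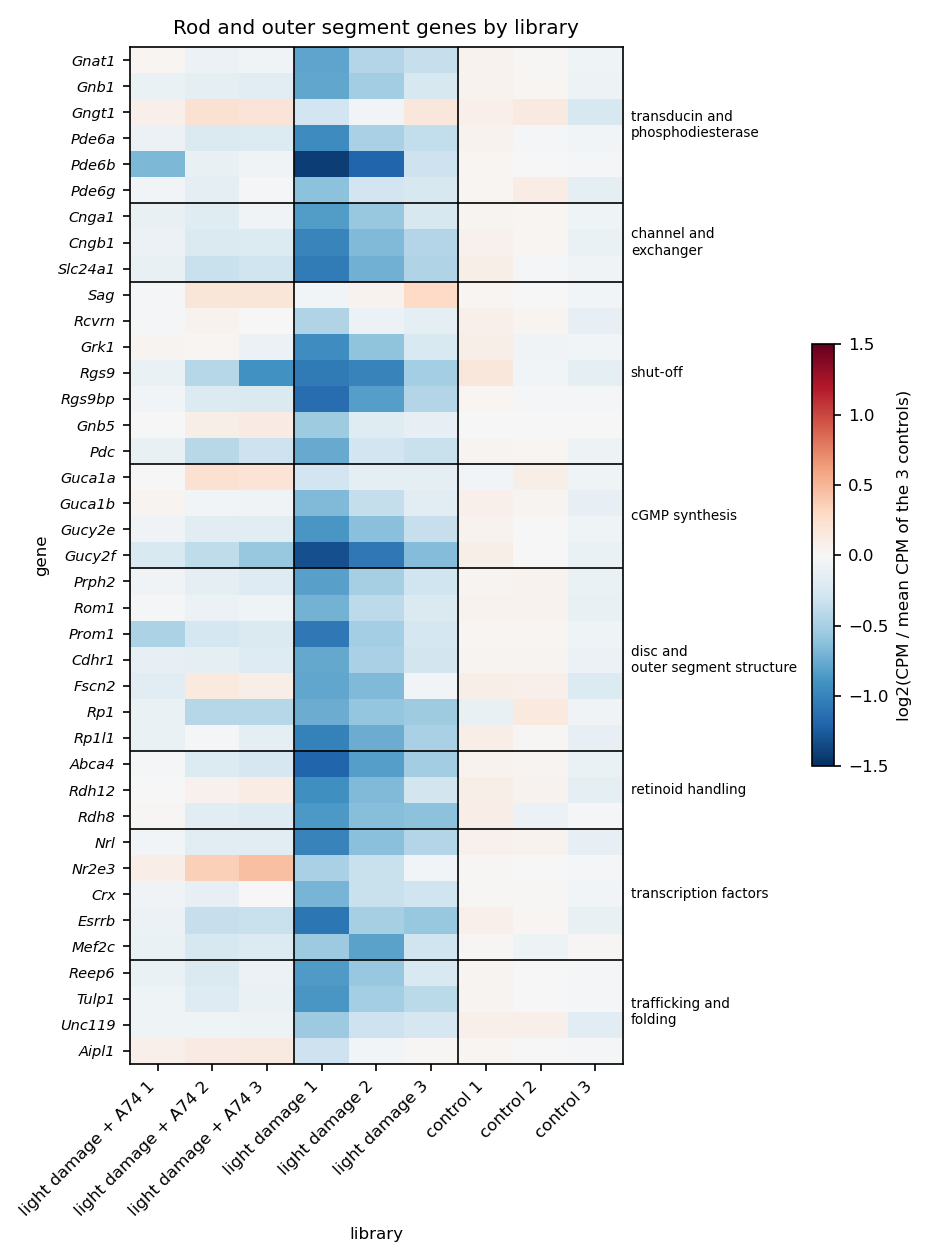
Heat map of the 39 genes, grouped by role, in the 9 libraries, with A74 libraries on the left, light damage in the middle and control on the right. Colour gives log2 of CPM over the mean CPM of the 3 controls. Light damage replicate 1 is the darkest blue column, with the lowest level of its group in 38 of 39 genes, and light damage replicate 3 the palest of its group, highest in 35.

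**Figure D3:**
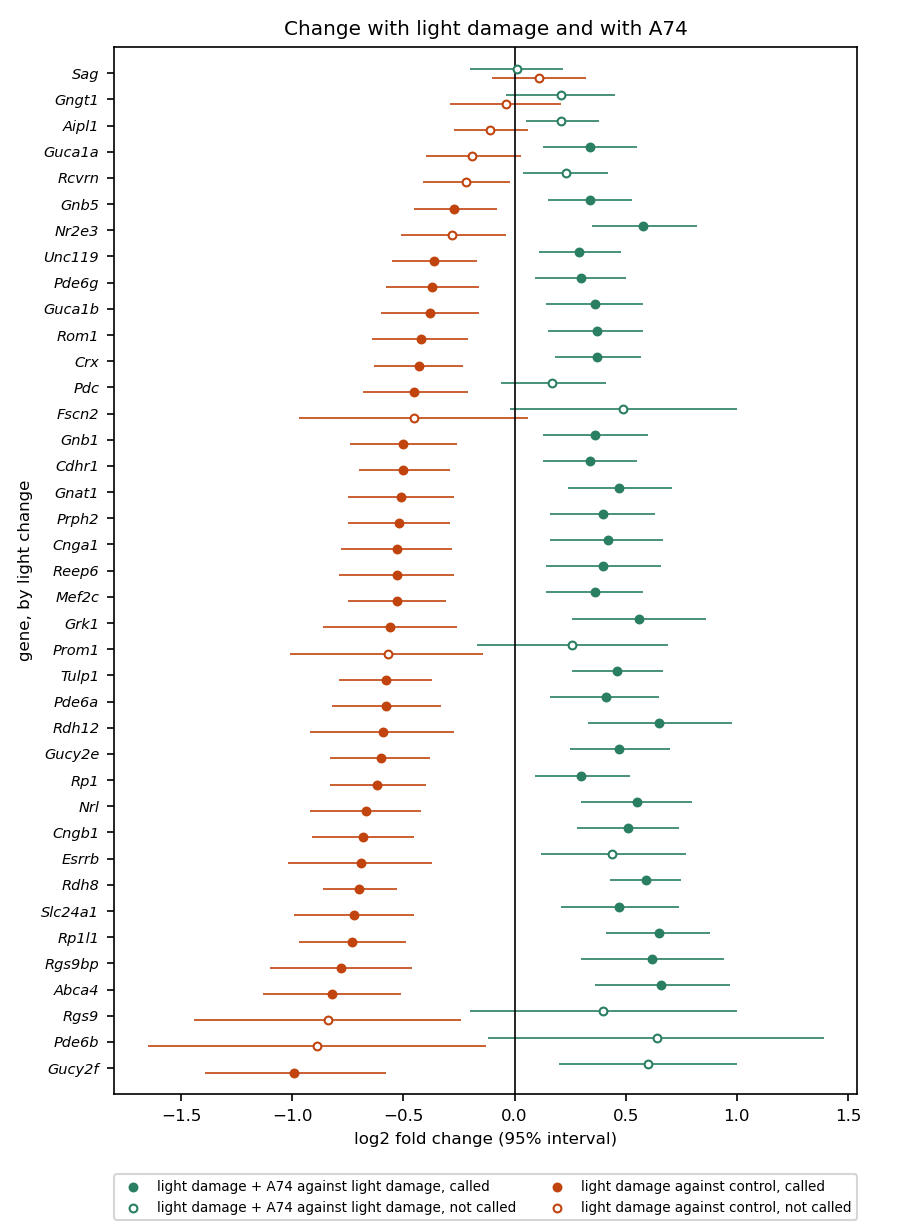
Log2 fold change of each gene with its 95% interval, for A74 with light damage against light damage in green and for light damage against control in orange, ordered by the light change. Filled points passed the edgeR test at an adjusted p under 0.05. The orange points run from 0.11 (Sag) to -0.99 (Gucy2f), and all green points lie above 0 in this fit (Sag, the lowest at 0.01, was at -0.05 with library totals alone).

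Of the 6 transducin and phosphodiesterase genes 4 fell with light and 4 were higher with A74. Of all genes tested 12.8% fell with light and 9.07% were higher for A74 against light damage. These shares stand beside the counts of every role group below. Gnat1 encodes the alpha subunit of rod transducin. It had 11752, 10878 and 11179.7 CPM in A74 libraries, 6685, 8540 and 9115 CPM in light damage libraries and 11974, 11671 and 11017 CPM in control libraries. Light damage lay below both other groups without overlap, and the log2 fold changes were -0.51 (SE 0.11, edgeR adjusted p = 0.00337) for light damage against control and 0.47 (SE 0.11, edgeR adjusted p = 0.00796) for A74 against light damage. Pde6a, a catalytic subunit of the phosphodiesterase, had 2085, 1917 and 1919.9 CPM with A74, 1157, 1587 and 1720.3 CPM with light damage and 2313, 2192 and 2159.8 CPM in control. It fell by 0.58 with light (SE 0.11, edgeR adjusted p = 0.00215) and rose by 0.41 with A74 over light damage (SE 0.11, edgeR adjusted p = 0.0232), and its A74 libraries were all below its control libraries.

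Pde6b, the partner catalytic subunit, had the widest spread of all members. It had 1594, 2341 and 2450.2 CPM with A74, 953, 1117 and 2039 CPM with light damage and 2586, 2522 and 2507 CPM in control. Light damage replicate 3 was above A74 replicate 1, so those groups overlapped, while all A74 and all light damage libraries stayed below all control libraries. The light change of -0.89 (SE 0.31, edgeR adjusted p = 0.0876) was the second most negative of all 39, yet it was not called, with a 95% interval of -1.65 to -0.13. It was called with the replicate number as a block over all groups (log2 fold change -0.97, edgeR adjusted p = 0.0342), with the block in the pair of groups alone (edgeR adjusted p = 0.045) and without light damage replicate 3 (log2 fold change -1.29, edgeR adjusted p = 0.00132). Gngt1, the gamma subunit of rod transducin, was the other exception. Its level was 1342, 1489.8 and 1456 CPM with A74, 1046, 1239 and 1431 CPM with light damage and 1337, 1402 and 1079.6 CPM in control. The groups overlapped. The light change of -0.04 (edgeR adjusted p = 0.842) had a 95% interval of -0.29 to 0.21 and turned to 0.06 with library totals alone. Gnb1, the transducin beta subunit, and Pde6g, the inhibitory subunit of the phosphodiesterase, had light changes of -0.50 and -0.37 and A74 changes of 0.36 and 0.30 over light damage, all called in the main fit. In the 2 groups alone both A74 calls were lost (edgeR adjusted p = 0.0687 and 0.0605). That of Pde6g was also lost with library totals alone (edgeR adjusted p = 0.0597) and with the replicate block over all groups (edgeR adjusted p = 0.0506).

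All 3 genes of the outer segment cation channel and exchanger fell with light and were higher with A74. Cngb1 is the modulatory channel subunit. It had 969, 888 and 892 CPM with A74, 521, 652 and 759.7 CPM with light damage and 1075, 1054 and 965 CPM in control. Light damage did not overlap either group, with log2 fold changes of -0.68 (SE 0.11, edgeR adjusted p = 0.000607) for light damage against control and 0.51 (SE 0.11, edgeR adjusted p = 0.00596) for A74 against light damage. Slc24a1, which encodes the exchanger that carries calcium out of the outer segment, had 1543, 1329 and 1357 CPM with A74, 806, 1018 and 1221 CPM with light damage and 1772, 1637 and 1605 CPM in control. It fell by 0.72 with light (SE 0.12, edgeR adjusted p = 0.00116), and its A74 libraries stood between the other groups without touching either. Cnga1, the pore-forming channel subunit, had -0.53 for light damage against control and 0.42 for A74 against light damage.

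Of the 7 shut-off genes 4 fell with light and 3 were higher with A74. Sag, which encodes rod arrestin, had 3896, 4491 and 4463 CPM with A74, 3828, 4107 and 4844 CPM with light damage and 4042, 3965 and 3833 CPM in control. It was the only member with a positive estimate for light damage against control, 0.11 (SE 0.10, edgeR adjusted p = 0.45), and its highest library was light damage replicate 3. For A74 against light damage the estimate was 0.01, with an interval of -0.20 to 0.22. Rcvrn, the calcium sensor that restrains the receptor kinase, had 1181, 1233 and 1192 CPM with A74, 871, 1117 and 1089 CPM with light damage and 1253, 1226 and 1094 CPM in control. Light damage replicate 2 reached into the control range, and the light change of -0.22 (SE 0.09, edgeR adjusted p = 0.0915) was not called, but was without light damage replicate 3 (edgeR adjusted p = 0.0402).

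Rgs9, the GTPase-accelerating protein of rods and cones, and Rgs9bp, its membrane anchor, differed in spread. Rgs9bp had 1179, 1050.2 and 1040.2 CPM with A74, 549, 681 and 894 CPM with light damage and 1236, 1202 and 1198 CPM in control. Its groups did not overlap, with log2 fold changes of -0.78 (SE 0.14, edgeR adjusted p = 0.00348) for light damage against control and 0.62 (SE 0.14, edgeR adjusted p = 0.0148) for A74 against light damage. Rgs9 had 320, 255 and 182 CPM with A74, 164, 171 and 240.4 CPM with light damage and 384, 333 and 308 CPM in control. Among the A74 libraries replicate 1 overlapped control and replicate 3 overlapped light damage, and the light change of -0.84 (SE 0.25, edgeR adjusted p = 0.0529) was just outside the threshold. It passed once light damage replicate 3 was left out (edgeR adjusted p = 0.0341) and with the replicate block in the pair of groups alone (edgeR adjusted p = 0.0344), but not with the block over all groups (edgeR adjusted p = 0.113). Pdc, phosducin, which binds the transducin beta and gamma subunits, had 2666, 2166 and 2329.8 CPM with A74, 1712, 2354 and 2279 CPM with light damage and 2971, 2929 and 2743 CPM in control. It fell with light by 0.45 (SE 0.11, edgeR adjusted p = 0.00849), whereas A74 against light damage gave 0.17 (edgeR adjusted p = 0.301), and all A74 libraries stayed below all control libraries. Grk1, the receptor kinase, had -0.56 with light and 0.56 for A74 against light damage, and Gnb5, the beta subunit of the Rgs9 complex, had -0.27 and 0.34, all called. The light call of Gnb5 was kept with the replicate block over all groups (edgeR adjusted p = 0.0196). It was lost in the pair of groups alone with the block (edgeR adjusted p = 0.0563) and without it (edgeR adjusted p = 0.0754). Library totals alone lost it too (log2 fold change -0.17, edgeR adjusted p = 0.109). So did leaving out any single control library, light damage replicate 1 or 2, or A74 replicate 2.

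Of the 4 genes of cyclic GMP synthesis 3 fell with light and 3 were higher with A74. Gucy2f, 1 of the 2 photoreceptor guanylate cyclases, had the largest fall of all members. Its level was 278, 251 and 219.8 CPM with A74, 131, 156 and 208 CPM with light damage and 348, 326 and 305 CPM in control. The 3 groups did not overlap, with -0.99 (SE 0.17, edgeR adjusted p = 0.00586) for light damage against control. A74 against light damage gave 0.60 (SE 0.17, edgeR adjusted p = 0.0516), just outside the threshold, and A74 against control gave -0.39 with an interval of -0.79 to 0.01. Gucy2e, the other cyclase, had 885, 816 and 818 CPM with A74, 499, 592 and 723 CPM with light damage and 954, 922 and 875 CPM in control. It fell by 0.60 with light (SE 0.10, edgeR adjusted p = 0.00101) and rose by 0.47 with A74 over light damage (SE 0.10, edgeR adjusted p = 0.00697). Guca1a and Guca1b encode the activators that switch the cyclases on when calcium falls. Guca1a had 18.1, 21.1 and 20.8 CPM with A74, 14.7, 16.4 and 16.3 CPM with light damage and 17.5, 19.2 and 17.2 CPM in control. Its light change of -0.19 was not called (edgeR adjusted p = 0.188) though the groups did not overlap, and A74 was higher than light damage by 0.34 (edgeR adjusted p = 0.0277). Guca1b had -0.38 with light (edgeR adjusted p = 0.0140) and 0.36 for A74 against light damage. In the pair of groups alone with the replicate block its light change was not called (edgeR adjusted p = 0.0581), while it was with the block over all groups (edgeR adjusted p = 0.0266). Leaving out control replicate 1 or 2 or light damage replicate 2 also lost the call.

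**Figure D4:**
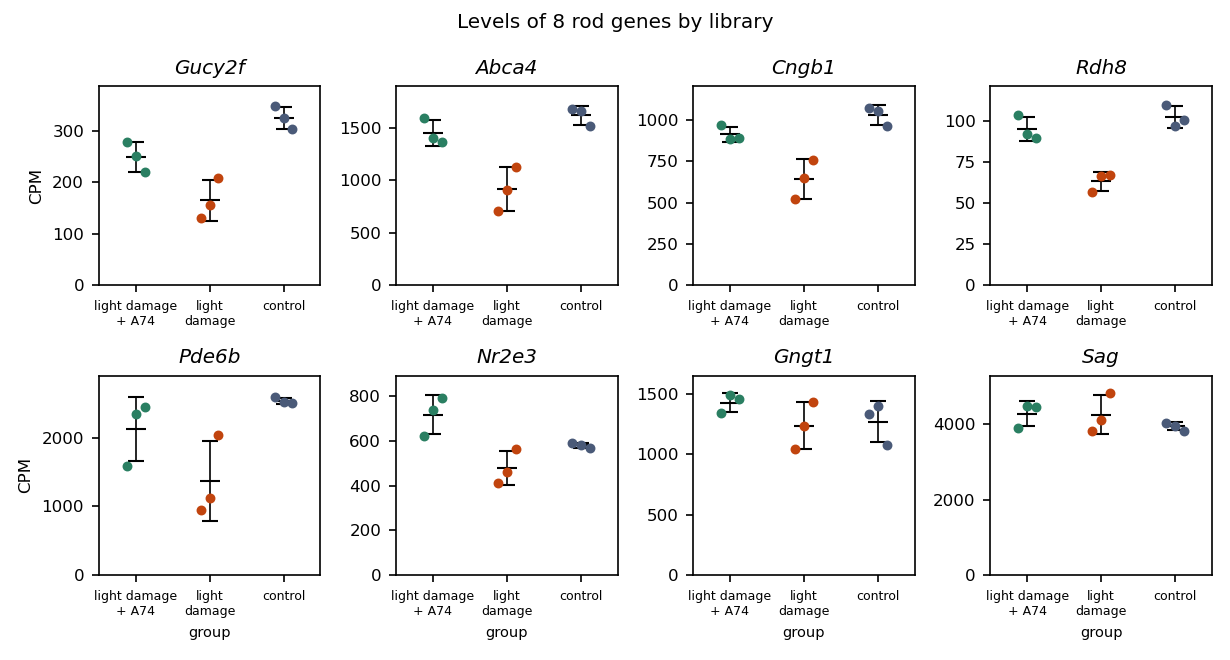
CPM of 8 genes in each library, by group, with the mean and SD of 3 libraries in black. Gucy2f, Abca4, Cngb1 and Rdh8 in the upper row have all light damage points below all A74 and control points. In the lower row Pde6b is spread widely with light damage and A74, Nr2e3 lies highest with A74, and the groups of Gngt1 and Sag overlap.

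Of the 7 genes of disc and outer segment structure 5 fell with light and 5 were higher with A74. Rp1 encodes a microtubule-associated protein of the outer segment axoneme, and Rp1l1 its paralogue. Rp1 had 1972, 1572 and 1573 CPM with A74, 1264, 1422 and 1463 CPM with light damage and 1965, 2355 and 2042 CPM in control. It fell with light by 0.62 (SE 0.10, edgeR adjusted p = 0.000438) and rose by 0.30 with A74 over light damage (SE 0.10, edgeR adjusted p = 0.0471). The A74 call of Rp1 was lost with library totals alone (edgeR adjusted p = 0.0737) and in the 2 groups alone (edgeR adjusted p = 0.0617). With the replicate block over all groups it was lost as well (edgeR adjusted p = 0.0681). A74 replicate 1 was within the control range, the other 2 A74 libraries lay nearer to light damage, and A74 against control gave -0.31 with an interval of -0.53 to -0.10 (edgeR adjusted p = 0.152). Rp1l1 had 583, 613 and 567 CPM with A74, 309, 372 and 446 CPM with light damage and 665, 632 and 573 CPM in control. Its A74 libraries overlapped control, with log2 fold changes of -0.73 (SE 0.11, edgeR adjusted p = 0.000501) for light damage against control and 0.65 (SE 0.11, edgeR adjusted p = 0.00201) for A74 against light damage.

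Prom1, a pentaspan membrane protein needed for disc formation, had 681, 789 and 817 CPM with A74, 451, 666 and 792 CPM with light damage and 971, 968 and 905 CPM in control. No A74 library reached control, and light damage replicate 3 was above A74 replicates 1 and 2. The light change of -0.57 (SE 0.19, edgeR adjusted p = 0.0573) was not called, nor was it with the replicate block in the pair of groups alone (edgeR adjusted p = 0.0543). It was called with the block over all groups (edgeR adjusted p = 0.0179) and without light damage replicate 3 (edgeR adjusted p = 0.00984). Fscn2, a photoreceptor actin-bundling protein, had 95, 117 and 113 CPM with A74, 61.7, 67.1 and 103 CPM with light damage and 113, 112 and 92 CPM in control. Light damage replicate 3 was above control replicate 3, and the light change of -0.45 (SE 0.21, edgeR adjusted p = 0.175) was not called. Without light damage replicate 3 it was -0.71 (edgeR adjusted p = 0.000443). The disc rim proteins Prph2 and Rom1 and the photoreceptor cadherin Cdhr1 had -0.52, -0.42 and -0.50 with light and 0.40, 0.37 and 0.34 for A74 against light damage, all called.

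All 3 genes of retinoid handling fell with light and were higher with A74, with the highest median A74 change of the 8 role groups, 0.65 on the log2 scale. Abca4, the transporter that clears retinal from the disc membrane, had 1597, 1400.5 and 1365 CPM with A74, 712, 912 and 1132 CPM with light damage and 1683, 1660.3 and 1516 CPM in control. Light damage stood apart from both other groups, with -0.82 (SE 0.14, edgeR adjusted p = 0.00181) for light damage against control and 0.66 (SE 0.14, edgeR adjusted p = 0.00833) for A74 against light damage. Rdh8, a reductase of all-trans-retinal in the outer segment, had 104, 92.3 and 90 CPM with A74, 56.9, 66.4 and 67.1 CPM with light damage and 110, 97.2 and 101 CPM in control. All light damage libraries were below all others, and Rdh8 had the smallest adjusted p of the members in both comparisons, with -0.70 (SE 0.08, edgeR adjusted p = 2.05e-05) for light damage against control and 0.59 (SE 0.08, edgeR adjusted p = 0.000148) for A74 against light damage. Rdh12, a reductase of the inner segment, had -0.59 with light (edgeR adjusted p = 0.0152) and 0.65 for A74 against light damage (edgeR adjusted p = 0.0143). Its light call was lost in the pair of groups alone with the replicate block (edgeR adjusted p = 0.0682) and kept with the block over all groups (edgeR adjusted p = 0.0217). The call was also lost in the pair of groups without the block (edgeR adjusted p = 0.0591), and on leaving out control replicate 1 or light damage replicate 2.

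Among the 5 transcription factors 4 fell with light and 4 were higher with A74. Nrl, which specifies rod fate, had 2157, 1963 and 1982 CPM with A74, 1103, 1435 and 1636 CPM with light damage and 2325, 2291 and 2030 CPM in control. Light damage did not overlap the other groups, with log2 fold changes of -0.67 (SE 0.12, edgeR adjusted p = 0.000888) for light damage against control and 0.55 (SE 0.12, edgeR adjusted p = 0.00545) for A74 against light damage. Nr2e3, a nuclear receptor that acts with NRL and represses cone genes in rods, had another order of groups. Its level was 619.6, 739.8 and 791 CPM with A74, 413, 460.3 and 564 CPM with light damage and 589, 582 and 568 CPM in control. The 3 groups did not overlap, and it was 1 of 2 members, with Aipl1, whose A74 libraries were all above control. The light change of -0.28 (SE 0.11, edgeR adjusted p = 0.0833) was not called, nor was it with the replicate block in the pair of groups alone (edgeR adjusted p = 0.0637). It was called with the block over all groups (edgeR adjusted p = 0.0245) and without light damage replicate 3 (edgeR adjusted p = 0.00162). A74 against light damage gave 0.58 (SE 0.11, edgeR adjusted p = 0.00373), and A74 against control 0.31 with an interval of 0.07 to 0.54 (edgeR adjusted p = 0.202). In the fit without light damage replicate 3 this last difference was called as well. Mef2c, a MADS-box factor that retinal cells other than rods also use, had 115, 104 and 107 CPM with A74, 84.3, 70.6 and 99.9 CPM with light damage and 125, 117 and 125 CPM in control. It fell with light by 0.53 (SE 0.10, edgeR adjusted p = 0.00296) and was lowest in light damage replicate 2, not replicate 1. Crx, the photoreceptor homeobox factor, had -0.43 with light and 0.37 for A74 against light damage, both called. The nuclear receptor Esrrb had -0.69 with light (edgeR adjusted p = 0.00780) and 0.44 for A74 against light damage (edgeR adjusted p = 0.0647).

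Of the 4 trafficking and folding genes 3 fell with light and 3 were higher with A74. Tulp1, which carries outer segment proteins out of the inner segment, had 1455, 1338 and 1428 CPM with A74, 836, 1073 and 1156 CPM with light damage and 1570.4, 1518 and 1493 CPM in control. The 3 groups did not overlap, with -0.58 (SE 0.10, edgeR adjusted p = 0.000522) for light damage against control and 0.46 (SE 0.10, edgeR adjusted p = 0.00444) for A74 against light damage. Reep6, a membrane-trafficking protein of rods, had 906, 838 and 913 CPM with A74, 537, 654 and 825 CPM with light damage and 998, 965 and 947 CPM in control. It fell with light by 0.53 (SE 0.12, edgeR adjusted p = 0.00675). Aipl1, the chaperone of the phosphodiesterase, had 694, 717 and 721 CPM with A74, 532, 638 and 667 CPM with light damage and 673, 658 and 647 CPM in control. The light change of -0.11 (SE 0.08, edgeR adjusted p = 0.348) had an interval of -0.27 to 0.06. Unc119, which carries lipid-modified transducin, had -0.36 with light and 0.29 for A74 against light damage, both called.

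The 10 members not called for light thus differed in kind. Sag, Gngt1, Aipl1, Guca1a, Rcvrn and Nr2e3 had small estimates, from 0.11 to -0.28. Fscn2, Prom1, Rgs9 and Pde6b had estimates of -0.45 to -0.89, and between-library coefficients of variation of 17.9%, 15.8%, 20.8% and 26.3% in the fit, against a median of 9.76% over the members. These 4 had the widest spread of the 39. Light damage replicate 3 was the highest of its group in 35 of the 39 genes, so calls gained by leaving it out are not independent support. In DESeq2, with all 9 libraries, Pde6b, Rcvrn, Rgs9, Prom1 and Nr2e3 were called for light, and Sag, Gngt1, Aipl1, Guca1a and Fscn2 were not.

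The light change was then compared between the 2 sets of libraries that anterior eye genes define. In the set high in them, light damage replicates 1 and 2 were set against control replicates 1 and 2, and in the other set light damage replicate 3 against control replicate 3. The median light change of the members was -0.69 in the first set, where 34 members were lower and none higher, against 16.1% and 15.7% of all genes, and -0.20 in the second, where 4 were lower and 1 higher (Gngt1) and 2.98% of all genes were lower and 3.41% higher. All 39 estimates were more negative in the first set. The interaction of light with set passed for 6 members, all more negative in the first set, beside 0.596% of all genes in that direction. These p-values, and the calls within the second set, rest on 1 library in each arm, which the fit assumes to vary like the others, and the split was chosen with earlier results known, so they describe these libraries and are not evidence of a difference between conditions. The log2 light change of Gngt1 was -0.26 with replicates 1 and 2 and 0.41 with replicate 3, and that of Fscn2 was -0.80 and 0.17. For Pde6b these values were -1.30 and -0.30, the widest gap of the members. For A74 against light damage the median was 0.59 in the first set, with 1 A74 against 2 light damage libraries and 30 members higher and none lower, against 9.59% and 8.92% of all genes. It was 0.16 in the second, with 2 against 1 and 4 members higher and none lower, against 1.86% and 2.06% of all genes. Among light damage and control libraries the sets coincide with Y-linked transcripts, so anterior RNA, Y-linked transcripts and the extent of damage in that retina cannot be told apart.

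**Figure D5:**
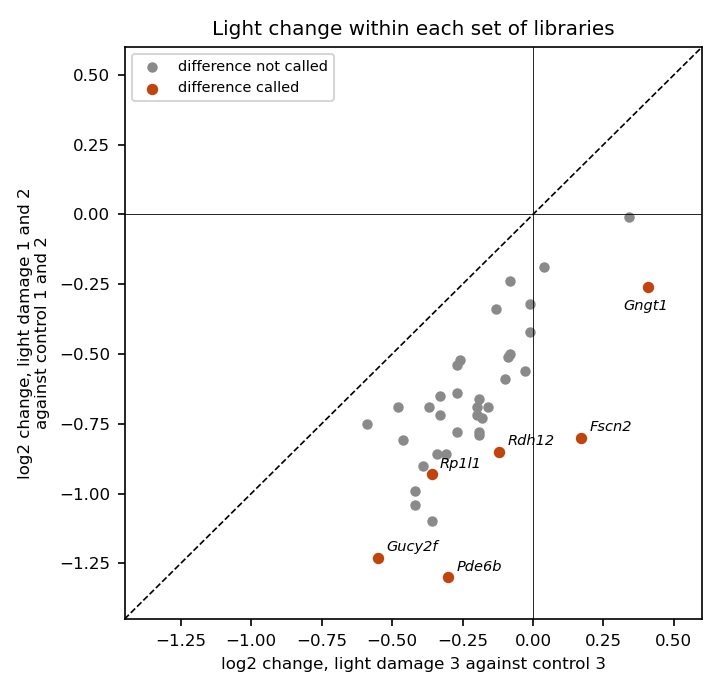
Log2 light change of each of the 39 genes in light damage replicates 1 and 2 against control replicates 1 and 2 (vertical axis) and in light damage replicate 3 against control replicate 3 (horizontal axis). The dashed line marks equal change. All genes lie below it, and the 6 in orange, named, passed the interaction test, in which replicate 3 is 1 library in each arm.

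Other genes of the outer segment and of rods, 26 that are not members, moved much like them. Of these 19 fell with light and none rose, beside 12.8% and 13% of all genes tested, and the median log2 fold change was -0.46. With A74 against light damage 14 were higher and 1 lower, beside 9.07% and 9.19% of all genes tested, with a median of 0.34. Rpgrip1, which anchors proteins in the connecting cilium, had log2 fold changes of -0.77 with light (edgeR adjusted p = 1.32e-05) and 0.49 for A74 against light damage. Ppef2, a photoreceptor phosphatase, had the most negative light change of this list, -0.85 (edgeR adjusted p = 5.89e-05), and rose by 0.61 with A74 (edgeR adjusted p = 0.000934). Samd7, a transcriptional repressor of photoreceptors, had -0.34 with light and 0.61 for A74 against light damage, both called. Rp2, a GTPase activator for ARL3 in cilia, was the member of this list lower with A74 than with light damage (-0.27, edgeR adjusted p = 0.0444), and Impg2, of the matrix around the outer segments, fell with light by 0.63 (edgeR adjusted p = 0.0320) and had -0.03 for A74 against light damage.

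Cone genes, set beside the rod genes as the most alike group, showed another count. Of 11, 3 rose and 1 fell with light, beside 13% and 12.8% of all genes tested, and the median log2 fold change was -0.11. Estimates were negative for 8 of the 11 and positive for 3. In 5 every light damage library was below every control library (20% of all genes tested), and in 3 every one was above (20.6%). The cone transducin subunits Gnb3 and Gngt2 had log2 fold changes of 0.55 and 0.57 (edgeR adjusted p = 0.00204 and 0.000740). Pde6h, the inhibitory subunit of the cone phosphodiesterase, had 0.31, and the thyroid hormone receptor Thrb had -0.26. RNA of whole retina does not show which cells the transcripts that rose came from, and a rise in cones was not tested. With A74 against light damage 2 cone genes were higher (Arr3 and Thrb) and 1 lower (Gnb3), beside 9.07% and 9.19% of all genes tested. Arr3 had -0.44 with light, not called (edgeR adjusted p = 0.0839), and 0.59 for A74 against light damage (edgeR adjusted p = 0.0427). The difference between rod and cone genes as groups was not tested.

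Markers of microglia and Müller glia moved in the direction opposite to the rod transcripts. The 10 microglia and macrophage markers summed to 42.4 to 61 CPM with A74, to 137 to 246 CPM with light damage and to 36.3 to 38.8 CPM in control. All 10 rose with light, beside 13% of all genes tested, and for A74 against light damage all 10 were lower, beside 9.19%. Within light damage, replicate 1 had the most of these markers and the least rod RNA, and replicate 3 the least and the most. Of 8 Müller glia markers 7 rose with light and 7 were lower with A74, beside 13% and 9.19% of all genes tested. The sum of the 8 ran from 4735 to 5326 CPM with A74, from 5916 to 6434 CPM with light damage and from 4768 to 5441 CPM in control. Of markers of other neurons, 4 of 8 for bipolar cells, 5 of 7 for ganglion cells and 1 of 6 for amacrine cells rose with light and none fell, beside 13% of all genes that rose. For A74 against light damage 5 bipolar markers were lower, beside 9.19% of all genes tested, and no ganglion or amacrine marker was called. Lens genes reached a sum of 770 CPM in A74 replicate 1, while no other library exceeded 101 CPM. Pigment epithelium genes ranged from 33.7 to 185 CPM within the control group alone. What part these sources had in the rod values was not tested.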

How the data were processed

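Total RNA of retina was sequenced in 9 libraries, 3 a group. The values used are the whole-number read counts per gene that the authors deposited. The submitters' processing notes name RSEM 1.3.1, Bowtie2, DESeq2 1.4.5 and the build GRCm39 without giving roles. Not given in the sources used here are the annotation release, the use of strand and whether the counts are rounded estimates.

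Counts were normalized by TMM and fitted over all 9 libraries with edgeR 4.0.16 (R 4.3.3), robust quasi-likelihood, after filterByExpr with a minimum count of 10. P-values were adjusted by Benjamini-Hochberg over 17272 genes and called under 0.05. SE is the log2 fold change over the square root of F, and intervals are 95%. DESeq2 1.42.0 was an alternative, as were other scalings, filters, group pairs, covariates and left-out libraries. Replicates of a group differed by more than sampling noise (chi-square per degree of freedom 2.52 to 15.7).

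Deviations of same-numbered light damage and control libraries from their group means had correlations of 0.12, 0.25 and 0.31. Control replicate 2 and light damage replicate 1, with different numbers, had 0.13. The main fit did not pair libraries, and the replicate number was used as a block only in the alternative fits named as such. The correlations, not the labels, are the source of this pairing (numbers in the library names differ from the replicate numbers), and it coincides with the split in Y-linked and anterior eye RNA. Same-numbered A74 libraries had correlations of -0.09 to 0.14 with the other groups and were not taken as paired.

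Levels are TMM-scaled CPM, not adjusted for gene length, and are not compared between genes. Genes with full values were the 2 with the smallest adjusted p for light in each role group, those not called, and the one with the largest change. The members and all lists were chosen with earlier results of these data known. The anterior eye sets were split at the widest gap of the summed level.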

Additional observations from a re-analysis of the deposited data

Results flagged for a closer look

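For 6 of the 39 genes the estimated light change was more negative in the libraries high in anterior eye RNA (light damage against control, replicates 1 and 2) than in those low in it (replicate 3), with an interaction in edgeR that passed the threshold over all genes. In log2 units, the first set minus the second, Pde6b differed by -1.0 (edgeR adjusted p = 0.000425), Fscn2 by -0.97 (edgeR adjusted p = 2.36e-05), Rdh12 by -0.73 (edgeR adjusted p = 0.00286), Gucy2f by -0.68 (edgeR adjusted p = 0.0408), Gngt1 by -0.67 (edgeR adjusted p = 0.0132) and Rp1l1 by -0.57 (edgeR adjusted p = 0.0390). The second set holds 1 light damage and 1 control library, assumed to vary like the others, and the split was chosen with earlier results known, so these p-values describe single libraries and do not establish a difference.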

How the results depend on the processing

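No member called for light or for A74 against light damage changed direction under any alternative run. Of the member estimates under the alternatives, 684 kept direction and side of the threshold for light, 33 gained and 20 lost a call and 4 turned sign, and for A74 against light damage these numbers were 545, 23, 127 and 7. The sign turned in a pair of genes near 0. Gngt1 for light was 0.06 with library totals alone, and -0.15 to 0.08 on leaving out single libraries, with 0.00 and 0.03 without control replicates 1 and 2 and 0.08 without light damage replicate 1. Sag for A74 against light damage was -0.05 with library totals alone, -0.04 with the tissue set as a term, -0.07 with Y-linked transcripts as a term, and -0.07 to 0.11 on leaving out single libraries, with -0.07 and -0.02 without light damage replicates 1 and 2, and -0.03 and -0.02 without A74 replicates 2 and 3. Members called ran from 25 to 35 for light, from 12 to 34 for A74 against light damage and from 0 to 1 for A74 against control when single libraries were left out. For A74 against light damage, Y-linked transcripts as a term left 3 and the 2 groups alone left 20. For A74 against control, 3 were called with no count filter, 1 in DESeq2, 4 with those 2 groups alone and 4 without light damage replicate 3 and A74 replicate 1 together. Genes called overall were 4452 for light (2818 to 5467 with single libraries left out) and 3153 for A74 against light damage (1717 to 4514, and 745 with the Y-linked term). For A74 against control they were 154, with 21 to 416 on leaving out single libraries, 258 with library totals alone (80.2% higher in place of 66.2%), 718 with no count filter, 322 in DESeq2, 558 with those 2 groups alone, 96 with the Y-linked term and 934 without light damage replicate 3 and A74 replicate 1. The replicate block gave 32 members for light, 28 in the pair of groups alone, a fit chosen after seeing the data. For A74 libraries, which share only a number (correlations with light damage 0.13, -0.07 and 0.13, with control 0.07, -0.09 and 0.14), the block gave 26 members against light damage and 0 against control. The causes of these changes were not tested. For light, Pde6b and Rgs9 missed the threshold at -0.89 and -0.84, with between-library coefficients of variation of 26.3% and 20.8%. Gnb5, with 8.28%, passed at -0.27 in the main fit. The Gnb5 call was lost under several alternatives, among them library totals alone (edgeR adjusted p = 0.109).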
